A study of Mus musculus with 5 samples.

Results

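Enteric neuron and glia genes were followed as a list of 36 mouse genes chosen by symbol, and 21 of them were among the 19198 genes of the deposited small intestine count table. The list held 25 neuron genes, 5 glia genes and 6 genes that neurons share with glia or with other cells of the gut wall. Of these, 14, 2 and 5 were in the table. The 15 listed genes that were not in the table used were Elavl3, Tubb3, Prph, Nefl, Nefm, Gap43, Npy, Penk, Cartpt, Th and Phox2a of the neuron genes, Sox10, S100b and Foxd3 of the glia genes, and Gfra3 of the shared ones. The smallest total of any gene in the table was 10 counts over the libraries.

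Of the 5 mice, 2 carried Math1Cre*PR together with floxed mAChR4 alleles (mAChR4 fl/fl) and are called Cre-positive, and 3 littermates with floxed alleles and no transgene made up the Cre-negative group. Both groups received RU486 by gavage at 10 mg/kg on each of 4 days, and the labels give neither age nor strain. Math1 (gene symbol Atoh1) is a transcription factor of secretory precursors in the gut epithelium, Cre*PR is a recombinase that RU486 switches on, and mAChR4 is the M4 muscarinic receptor, encoded by Chrm4. No Cre-positive mouse with unfloxed alleles was among the samples used here, so effects of active Cre and of the targeted receptor gene cannot be told apart. Each mouse gave 1 library of ribosome-depleted total RNA from whole small intestine, with 4681119 to 6618204 estimated counts, of which mitochondrial genes held 17.3% to 23.8%. Chrm4 had 13 and 5 counts in Cre-positive 1 and 2, and 4, 20 and 4 in Cre-negative 1, 2 and 3, in tissue that also holds cells outside the Math1 lineage. Below, values are listed in that order of mice. The groups overlapped for Chrm4, with a log2 fold change, Cre-positive over Cre-negative, of -0.14 ± 0.91 (SE). These counts therefore did not show a loss of Chrm4 RNA. A pair of libraries stood apart by cell type markers: Cre-positive 1 had 211 CPM (counts scaled to a common library size with TMM factors) of 7 leukocyte markers, against 20.7 to 39.3 CPM in the others, and Cre-negative 1 had 4355 CPM of 12 smooth muscle markers, against 1410 to 2184 CPM in the others. P-values measure the spread between these mice.

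The enteric nervous system is a network of neurons and glia that lies within the gut wall, in a plexus between the muscle layers and another beneath the mucosa. Its cells descend from the neural crest, and their precursors depend on the receptor tyrosine kinase RET, which responds to GDNF, and on the endothelin receptor EDNRB. Excitatory motor neurons use acetylcholine and tachykinins, inhibitory ones use nitric oxide and VIP, and glia carry SOX10, S100B and GFAP.

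The neuron genes were scarce in every library. Their 14 members present summed to 137 and 142 counts in the Cre-positive mice, and to 189, 197 and 123 in the Cre-negative mice. That was 0.00274% and 0.00215% of all counts in Cre-positive libraries, and 0.00404%, 0.00371% and 0.00216% in Cre-negative libraries. As CPM the sums were 26.5 and 22.1 in the Cre-positive mice, against 45.3, 36.5 and 20.0 in the Cre-negative mice. The groups overlapped, because Cre-negative 3 lay below both Cre-positive libraries. Per kilobase of exon, the mean level of a neuron member had a median percentile of 18.4 among the genes of the table, and 14 of the 21 members had under 100 counts in all 5 libraries together. With so few counts, only large differences were detectable, and intervals given below cover counting error only. In whole tissue, fewer neurons and less RNA per neuron cannot be told apart.

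The glia label rested on few counts in these libraries. Gfap, the glial filament gene, had 3 and 3 counts in the Cre-positive mice and 6, 2 and 3 in the Cre-negative mice. Erbb3, a neuregulin receptor gene that glial precursors need and that gut epithelium also expresses, held 803 times as many counts as Gfap over the 5 libraries. It took 85.8% of all counts of the 21 members. Per kilobase of exon, its mean level was 81.6 CPM, against 0.159 CPM for Gfap, 1.18 CPM for Vip and 0.826 CPM for Ret. Sox10, S100b and Foxd3, the other listed glia genes, were not in the table used, which leaves Gfap as the 1 filament or calcium-binding marker of glia among the members. Both glia members are therefore described singly, and Erbb3 is not read as a glial signal.

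Of the 21 members, 12 passed the filter on low counts: 7 neuron genes (Elavl4, Stmn2, Snap25, Syt1, Vip, Tac1 and Ret), 1 glia gene (Erbb3) and 4 shared genes (Hand2, Ednrb, Ncam1 and L1cam). That filter asks for about 10 counts in at least 2 libraries, which either group alone can supply. Elavl4, Stmn2, Snap25, Syt1, Tac1 and Hand2 had under 10 counts in 1 of the 2 Cre-positive mice. Their passing therefore depended on the Cre-negative libraries, and their direction is not independent of the filter. No member passed edgeR's quasi-likelihood test, a count test that shares estimates of spread across genes, over all 14352 genes tested at an adjusted p of 0.05, in either direction, against a background of 0% called higher and 0% called lower. The lowest adjusted p of any gene was 0.977. At an unadjusted p under 0.05, 1 member was lower (Snap25) and 0 were higher, where 1.78% of all genes tested were lower and 1.6% higher. DESeq2 called 0 members, against 0.0488% of genes lower and 0.0836% higher, and limma-voom called 0 members and 0 genes. For 1 of the 12 members the groups did not overlap, again Snap25 on the lower side. Over all genes tested, 10.2% did not overlap on the lower side and 7.89% on the higher side, so the share of members whose groups did not overlap lay near the background.

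**Figure D1:**
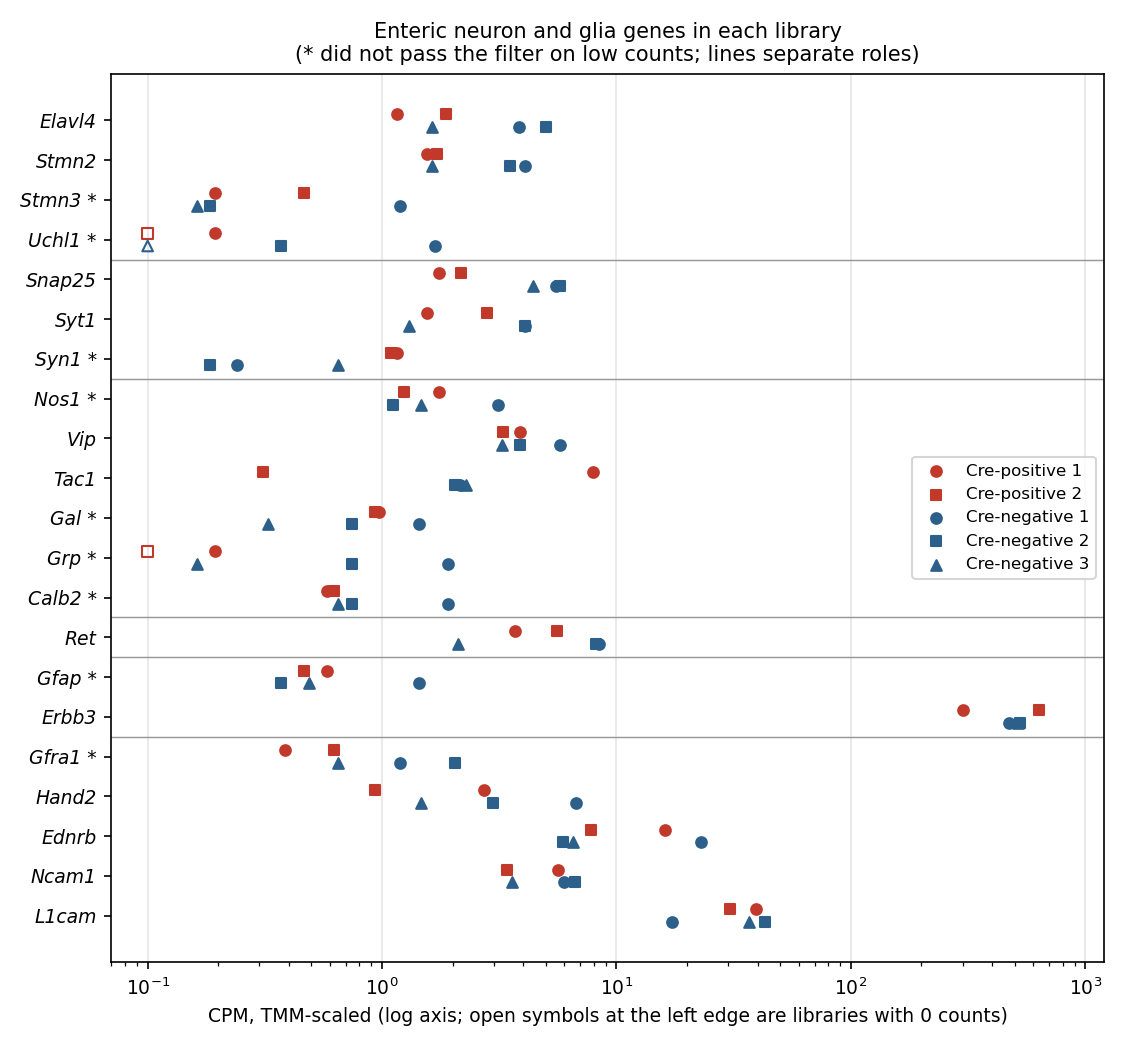
CPM of the 21 members (rows, by role) in each of 5 libraries, on a log axis. Red symbols are Cre-positive 1 and 2, blue symbols are Cre-negative 1, 2 and 3, and open symbols mark libraries with 0 counts. Snap25 is the 1 member past the filter whose red and blue symbols do not overlap, and Erbb3 lies far to the right of all others at 299.9 to 637 CPM.

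Genes of neuronal identity and the axon had lower means in Cre-positive intestine, with groups that overlapped. Elavl4, an RNA-binding protein of neurons (HuD), had 1.16 and 1.87 CPM in the Cre-positive mice, against 3.83, 5.003 and 1.63 in the Cre-negative mice. Stmn2, a microtubule regulator of growing axons, had 1.55 and 1.71 CPM in the Cre-positive mice, against 4.07, 3.52 and 1.63 in the Cre-negative mice. For both genes Cre-negative 1 and 2 were high, while Cre-negative 3 stood among the Cre-positive libraries. The log2 fold change was -1.17 ± 0.62 (SE) for Elavl4 and -0.89 ± 0.57 for Stmn2 (edgeR adjusted p = 0.977 for each). Stmn3, of the same family, had 1 and 3 counts in the Cre-positive mice and 5, 1 and 1 in the Cre-negative mice. Uchl1, the ubiquitin hydrolase PGP9.5 used to stain enteric neurons, had 1 and 0 counts in the Cre-positive mice and 7, 2 and 0 in the Cre-negative mice. The summed ratio of Cre-positive over Cre-negative counts for Uchl1, scaled by library totals, was 0.15 (exact binomial 95% interval 0.0034 to 1.08), and a count of 0 (taken as up to 3 counts of the unscaled library total) allows 0.453 CPM in the second Cre-positive mouse and 0.526 in Cre-negative 3.

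Of the 3 synaptic genes, Snap25 had lower and Syn1 had higher values in both Cre-positive mice than in any Cre-negative mouse, neither past the test. Snap25, a SNARE protein that drives vesicle fusion at nerve endings and in endocrine cells, lies on chromosome 2 (GRCm38 chr2:136713453-136782428, plus strand) and had 9 and 14 counts in the Cre-positive mice and 23, 31 and 27 in the Cre-negative mice. Its level was 1.74 and 2.18 CPM in the Cre-positive mice, against 5.51, 5.74 and 4.40 in the Cre-negative mice. Both Cre-positive libraries lay below all Cre-negative ones, including Cre-negative 3. It averaged 1.96 ± 0.307 CPM (SD, n = 2) in Cre-positive and 5.22 ± 0.719 CPM (SD, n = 3) in Cre-negative mice. The log2 fold change was -1.39 ± 0.41 (SE; edgeR unadjusted p = 0.0112, adjusted p = 0.977), so it did not pass over all genes. Syt1, the calcium sensor of fast release, had 1.55 and 2.80 CPM in the Cre-positive mice, against 4.07, 4.08 and 1.30 in the Cre-negative mice (log2 fold change -0.50 ± 0.63; edgeR adjusted p = 0.977). Its groups overlapped through Cre-negative 3. Syn1, a phosphoprotein of the vesicle surface, had 6 and 7 counts in the Cre-positive mice and 1, 1 and 4 in the Cre-negative mice, the opposite direction to Snap25. Syn1 did not pass the filter, and its log2 fold change without a filter was 1.57 ± 0.87 (edgeR adjusted p = 0.982). An exon of Araf, a kinase gene, overlaps Syn1 on the opposite strand, and Araf had 41.2 and 49.6 CPM in the Cre-positive mice and 46.7, 42.6 and 48.6 in the Cre-negative mice. In all, exons of another gene overlap 7 of the 21 members, 6 on the opposite strand (Uchl1, Syn1, Nos1, Gfra1, Hand2 and Ncam1) and 1 on the same strand (L1cam). Use of strand in counting is not stated, so reads of Syn1 and Araf cannot be separated.

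Among the transmitter and subtype genes, Vip was nearly level across the mice and Tac1 differed widely between the Cre-positive mice. The stretches just before the transcription start are shown for Vip and Gal, a pair of neuropeptide precursors, and for the neuronal identity gene Elavl4. For Elavl4 this is the first of 4 RefSeq windows, and which start these scarce transcripts use was not tested. The stretches show the letters that lie before an annotated start. Each is 250 bases, 5′ to 3′ on the gene's strand, from RefSeq on GRCm38.p6. Capitals mark the letters TATAAA, known from promoter boxes that position the start, and the letters TGACGTC, the core of a cAMP response element. Both were searched on both strands, and no 2 matches overlap.
Vip (chr10:5638968-5639217, plus strand): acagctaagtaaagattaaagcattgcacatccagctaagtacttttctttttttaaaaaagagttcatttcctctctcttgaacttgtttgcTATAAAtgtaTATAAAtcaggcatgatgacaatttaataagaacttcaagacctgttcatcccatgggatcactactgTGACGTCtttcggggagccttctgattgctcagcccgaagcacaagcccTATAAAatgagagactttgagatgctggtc
Gal (chr19:3414545-3414794, minus strand): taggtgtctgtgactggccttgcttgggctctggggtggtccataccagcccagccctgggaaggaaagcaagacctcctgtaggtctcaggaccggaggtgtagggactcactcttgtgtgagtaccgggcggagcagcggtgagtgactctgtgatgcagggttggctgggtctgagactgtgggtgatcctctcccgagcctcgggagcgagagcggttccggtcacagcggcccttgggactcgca
Elavl4 (chr4:110351912-110352161, minus strand): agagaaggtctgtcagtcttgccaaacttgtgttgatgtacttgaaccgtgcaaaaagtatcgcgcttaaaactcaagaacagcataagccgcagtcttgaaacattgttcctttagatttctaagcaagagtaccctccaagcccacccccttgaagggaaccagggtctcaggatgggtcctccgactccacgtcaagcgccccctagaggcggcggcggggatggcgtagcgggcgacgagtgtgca

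The Vip window held TATAAA starting 157, 147 and 30 bases before the start, and TGACGTC starting 79 bases before it, while neither motif was in the Gal and Elavl4 windows. Of 32851 RefSeq promoter windows of this length, 12.4% held TATAAA and 2.78% held TGACGTC. RefSeq windows were at hand for 23 of the 36 listed genes, 28 windows in all. TGACGTC was in 5 of these (Vip, Syn1, Th, Cartpt and Foxd3) and TATAAA in 3 (Vip, Elavl3 and Prph). A match is a description of letters and does not show that a factor binds there.

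Vip, the relaxant peptide of inhibitory motor and secretomotor neurons, had 20 and 21 counts in the Cre-positive mice and 24, 21 and 20 in the Cre-negative mice. That was 3.87 and 3.26 CPM in the Cre-positive mice, against 5.75, 3.89 and 3.26 in the Cre-negative mice, and the log2 fold change was -0.26 ± 0.42 (edgeR adjusted p = 0.977). Only Cre-negative 1 stood above the rest. Nos1, the neuronal nitric oxide synthase of the same inhibitory neurons, had 9 and 8 counts in the Cre-positive mice and 13, 6 and 9 in the Cre-negative mice, again with overlapping groups. Its log2 fold change without a filter was -0.28 ± 0.65 (edgeR adjusted p = 0.986).

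Tac1, the precursor of substance P and neurokinin A, had 41 counts in Cre-positive 1 and 2 in Cre-positive 2, and 9, 11 and 14 counts in Cre-negative 1, 2 and 3. Its level was 7.93 and 0.311 CPM in the Cre-positive mice, against 2.16, 2.04 and 2.28 in the Cre-negative mice. The Cre-positive mice held the highest and the lowest library, while the Cre-negative mice lay close together. The log2 fold change of 0.89 ± 0.99 (edgeR adjusted p = 0.977) became -2.71 without Cre-positive 1 and 1.91 without Cre-positive 2. Tac1 is also made by some enteroendocrine cells and immune cells. The enteroendocrine list (14 of 15 markers in the table) summed to 74.3 and 40.9 CPM in the Cre-positive mice, against 24.9, 21.1 and 36.5 in the Cre-negative mice. Of the 14, 5 passed the filter, with 4 above 0, 1 below and a median log2 fold change of 1.46. Without the filter, 8 of the 14 were above 0 and 6 below, with a median of 0.45. The leukocyte list (7 of 7) summed to 211 and 20.7 CPM in the Cre-positive mice, against 39.3, 25.6 and 21.2 in the Cre-negative mice. Ptprc made up most of that sum in Cre-positive 1, at 159 CPM. Cd79a, a B cell gene, had 48 counts in Cre-positive 1 and 0 in Cre-positive 2 and in each Cre-negative mouse. Not all 7 markers stood apart. Adgre1 had 7.55 CPM in Cre-positive 1 and 8.39 in Cre-negative 1, and Csf1r had 9.29 and 7.67 in the same libraries. The part of enteroendocrine and immune cells in the Tac1 value was not tested.

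The remaining transmitter genes were near the limit of detection. Gal, the precursor of galanin, had 5 and 6 counts in the Cre-positive mice and 6, 4 and 2 in the Cre-negative mice. Calb2, the calcium-binding protein calretinin that marks excitatory and sensory subtypes, had 3 and 4 counts in the Cre-positive mice and 8, 4 and 4 in the Cre-negative mice. Its CPM of 0.581 and 0.622 in Cre-positive 1 and 2 lay just below 1.92, 0.741 and 0.652 in Cre-negative 1, 2 and 3. Grp, the precursor of gastrin-releasing peptide, had 1 and 0 counts in the Cre-positive mice and 8, 4 and 1 in the Cre-negative mice. Its summed ratio of Cre-positive over Cre-negative, scaled by library totals, was 0.104 (exact binomial 95% interval 0.0024 to 0.692). Without a filter, the edgeR adjusted p was 0.987 for Gal and 0.982 for Calb2 and Grp, and the spread between mice, with 8 and 1 counts in the same group for Grp, is not part of the counting interval.

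The receptors for GDNF did not pass the test. Ret, the GDNF family receptor kinase, had 3.68 and 5.60 CPM in the Cre-positive mice, against 8.39, 8.15 and 2.12 in the Cre-negative mice (log2 fold change -0.40 ± 0.61; edgeR adjusted p = 0.977). Cre-negative 1 and 2 were high and Cre-negative 3 was the lowest of all. Gfra1, the coreceptor that binds GDNF, had 2 and 4 counts in the Cre-positive mice and 5, 11 and 4 in the Cre-negative mice, and its CPM did not overlap between groups only by 0.622 in Cre-positive 2 against 0.652 in Cre-negative 3. Its log2 fold change without a filter was -1.26 ± 0.84 (edgeR adjusted p = 0.982).

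Hand2, a transcription factor that neural crest cells need to become enteric neurons, had 2.71 and 0.933 CPM in the Cre-positive mice, against 6.71, 2.96 and 1.47 in the Cre-negative mice (log2 fold change -1.01 ± 0.78; edgeR adjusted p = 0.977). Its deposited values were not whole, and an exon of Hand2os1 overlaps it on the opposite strand. Hand2os1 had 5.03 and 6.37 CPM in the Cre-positive mice and 17.97, 15.8 and 7.33 in the Cre-negative mice, so the pair of genes cannot be separated. Ednrb, the endothelin B receptor gene, which gut mesenchyme also expresses, had 16.1 and 7.77 CPM in the Cre-positive mice, against 23.0, 5.93 and 6.52 in the Cre-negative mice (log2 fold change 0.03 ± 0.66; edgeR adjusted p = 0.997). Its highest libraries were Cre-negative 1 and Cre-positive 1. The 7 fibroblast markers summed to 373 and 224 CPM in the Cre-positive mice and to 701, 370 and 193 in the Cre-negative mice. The same pair was highest there, but Cre-negative 2, the lowest in Ednrb, nearly equalled Cre-positive 1 in this sum. The part of fibroblasts in the Ednrb value was not tested.

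The adhesion genes Ncam1 and L1cam, which neurons and glia use for contact and axon growth, had overlapping groups. Ncam1 had 5.61 and 3.42 CPM in the Cre-positive mice, against 5.99, 6.67 and 3.58 in the Cre-negative mice (log2 fold change -0.26 ± 0.44; edgeR adjusted p = 0.977). L1cam had 39.3 and 30.5 CPM in the Cre-positive mice, against 17.3, 43.2 and 36.7 in the Cre-negative mice (log2 fold change 0.10 ± 0.39; edgeR adjusted p = 0.982). L1cam was lowest in Cre-negative 1, the library where 12 of the 21 members were highest. Per kilobase of exon its mean of 4.54 CPM lay above every neuron member. Arhgap4, whose exons overlap L1cam on the same strand, had 44 and 11 counts in the Cre-positive mice and 12, 12 and 6 in the Cre-negative mice.

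Erbb3 had 299.9 and 637 CPM in the Cre-positive mice, against 471, 529 and 519 in the Cre-negative mice. The Cre-positive mice held both the lowest and the highest library, and the log2 fold change was -0.11 ± 0.34 (edgeR adjusted p = 0.981). The 10 epithelial markers summed to 5528 and 14091 CPM in the Cre-positive mice, against 10842, 6940 and 14346 in the Cre-negative mice. The library lowest in Erbb3 was also the lowest in this sum, but Cre-negative 2 was next lowest in the sum and next highest in Erbb3. Sis, the most abundant of the 10, had 1899 and 6753 CPM in the Cre-positive mice, against 4845, 2740 and 8139 in the Cre-negative mice. Krt8 had 521 and 444 CPM in the Cre-positive mice, against 282, 340 and 356 in the Cre-negative mice. Of the 10, 3 (Krt8, Epcam and Krt20) did not overlap on the higher side and 0 on the lower side. Over all genes tested, 7.89% did not overlap on the higher side. The part of epithelium in the Erbb3 value was not tested. Erbb3 per 1000 CPM of the 10-marker sum was 54.3 and 45.2 CPM in the Cre-positive mice, against 43.4, 76.2 and 36.2 in the Cre-negative mice. Its log2 fold change turned to 0.33 when Cre-positive 1 was left out and was -0.71 when Cre-positive 2 was left out. Another 5 genes of enteric glia were in the table. With Gfap, these glial genes summed to 25.5 and 28.3 CPM in the Cre-positive mice, against 38.8, 35.8 and 27.0 in the Cre-negative mice. The neuron sum divided by this glial sum was 1.04 and 0.780 in the Cre-positive mice, against 1.17, 1.02 and 0.741 in the Cre-negative mice. The ratio of neuron to glial genes therefore overlapped between the groups, at 0.909 ± 0.182 (SD, n = 2) in Cre-positive and 0.976 ± 0.216 (SD, n = 3) in Cre-negative mice.

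The neuron and the smooth muscle genes shared their highest libraries, Cre-negative 1 and 2. All 12 smooth muscle markers were in the table, and they summed to 1410 and 1667 CPM in the Cre-positive mice, against 4355, 2184 and 1673 in the Cre-negative mice. Cre-negative 1 was highest in 12 of the 21 members, Cre-negative 2 in 6, Cre-positive 1 in 2, Cre-positive 2 in 1 and Cre-negative 3 in 0. Per 1000 CPM of smooth muscle genes, the 14 neuron genes had 18.8 and 13.2 CPM in the Cre-positive mice, against 10.4, 16.7 and 11.98 in the Cre-negative mice. On that scale 1 Cre-positive mouse lay above and the other within the Cre-negative range, at 16.02 ± 3.93 (SD, n = 2) in Cre-positive and 13.0 ± 3.29 (SD, n = 3) in Cre-negative mice. Leaving out Tac1, the values were 13.2 and 13.1 in the Cre-positive mice, against 9.90, 15.8 and 10.6 in the Cre-negative mice.

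**Figure D2:**
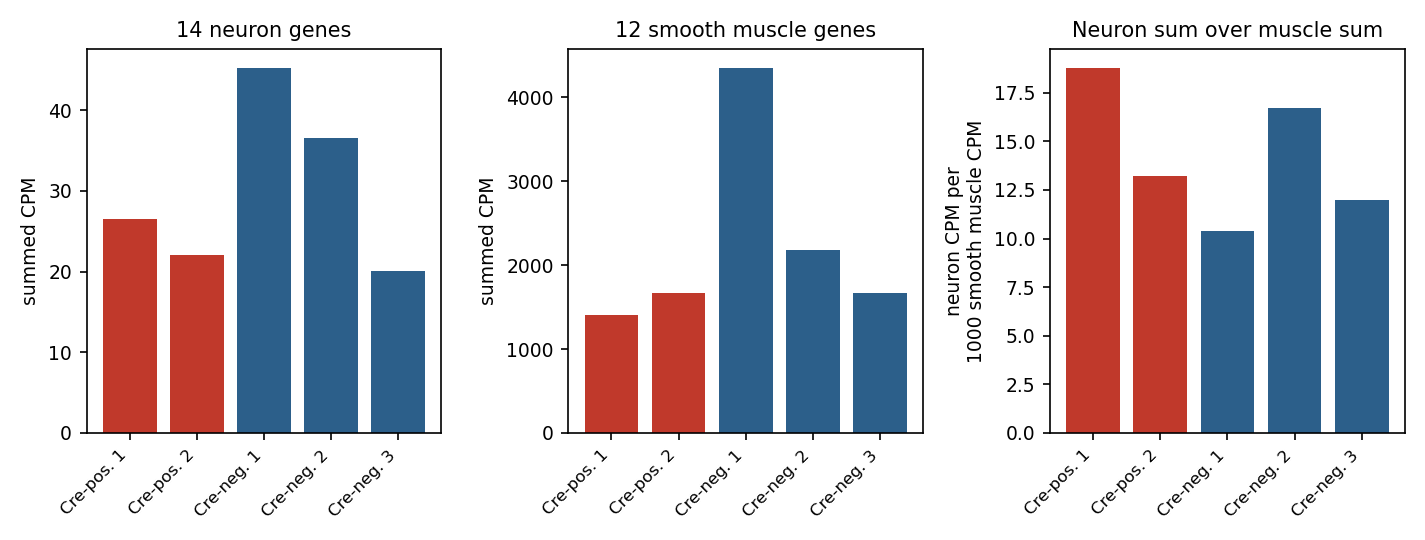
Summed CPM of the 14 neuron genes (left), summed CPM of the 12 smooth muscle genes (middle) and their ratio (right), one bar per library, with Cre-positive in red and Cre-negative in blue. Cre-negative 1 is highest for both sums, at 45.3 and 4355 CPM, and lowest for the ratio, at 10.4.

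The median log2 fold change of the 7 neuron genes past the filter was -0.50, with 6 below 0 and 1 above, beside -0.04 for all genes tested. Without the filter, 11 of the 14 neuron genes in the table were below 0 and 3 above, with a median of -0.44. For the 7 genes past the filter, leaving out Cre-positive 1 or 2 gave a median of -0.82 or -0.91. Leaving out Cre-negative 1, 2 or 3 gave -0.25, -0.27 or -0.85. When a smooth muscle score entered the model beside genotype, the median of the same 7 became 0.11, with 3 below 0. Snap25 kept a log2 fold change of -1.27 ± 0.49 in that model (edgeR unadjusted p = 0.0345, adjusted p = 0.999), and Elavl4 had -0.77 ± 0.73 and Stmn2 -0.36 ± 0.63. Syt1, Vip, Ret and Hand2 turned to 0.12 ± 0.70, 0.11 ± 0.47, 0.36 ± 0.63 and 0.08 ± 0.74, and Ednrb had 1.08 ± 0.55 (edgeR adjusted p = 0.999 for each). The model with the score has 2 residual degrees of freedom, so its errors are wide. The score, a mean log2 CPM, was 5.77 and 5.88 in the Cre-positive mice, against 7.44, 6.36 and 5.78 in the Cre-negative mice, so the groups overlapped narrowly through Cre-negative 3.

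**Figure D3:**
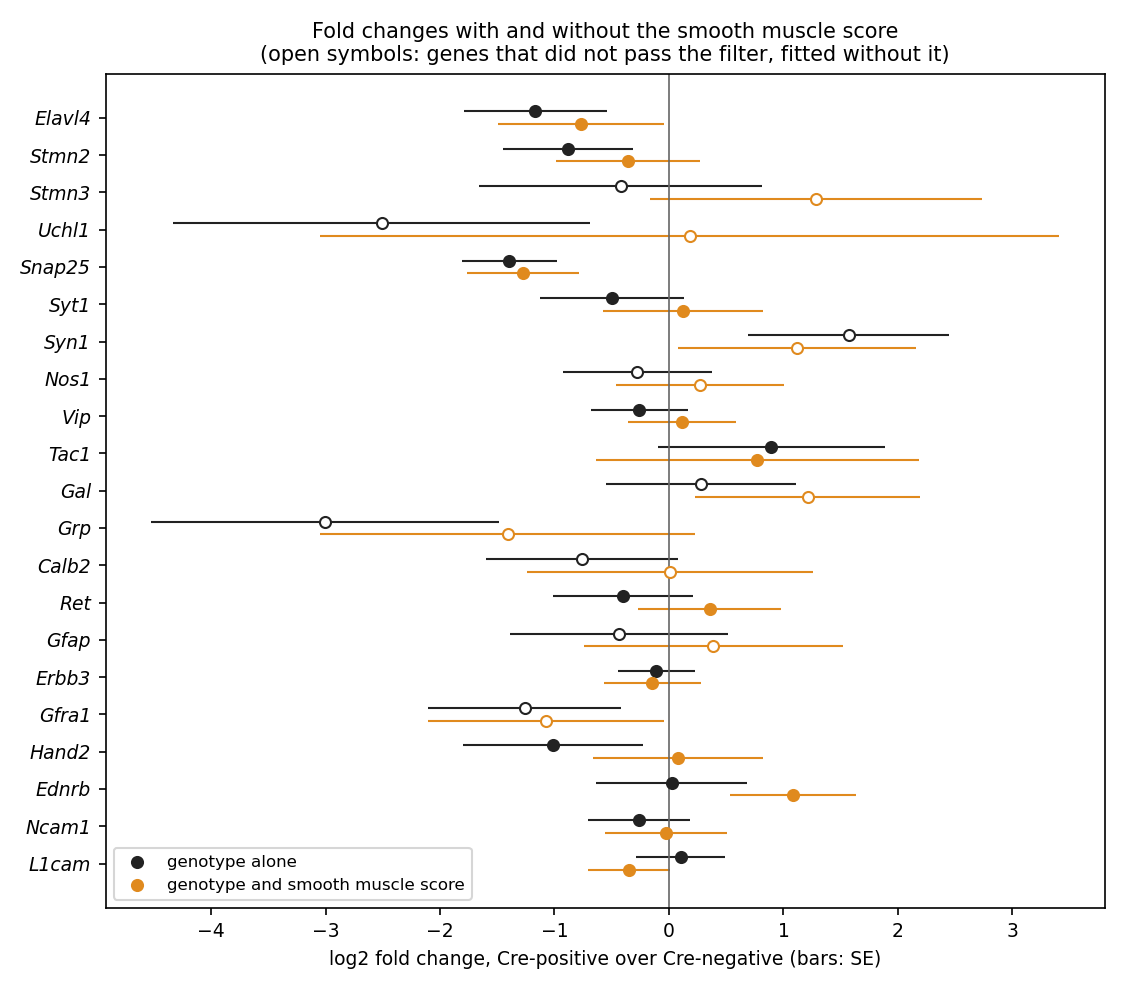
Log2 fold change of each member, Cre-positive over Cre-negative, with its SE, for genotype alone (black) and with a smooth muscle score in the model (orange). Open symbols are genes that did not pass the filter. Snap25 stays at -1.39 and -1.27, while Syt1, Vip, Ret and Hand2 cross 0.

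Further genes of the same pathways were described from lists that held no member. Of 20 genes of vesicle release, 19 were in the table and 11 passed the filter, with 9 below 0, 2 above and a median log2 fold change of -0.41. The most abundant were the SNARE genes Vamp2, with 33.3 and 41.5 CPM in the Cre-positive mice and 57.5, 30.8 and 40.9 in the Cre-negative mice, and Vamp1, with 13.0 and 10.3 CPM in the Cre-positive mice and 11.02, 15.6 and 13.5 in the Cre-negative mice. Rab3c, a vesicle GTPase gene, was the 1 gene of the 11 whose groups did not overlap, with 3.68 and 3.42 CPM in the Cre-positive mice and 4.55, 4.82 and 5.38 in the Cre-negative mice. Over all genes tested, 10.2% did not overlap on the lower side, so 1 of 11 lay near the background.

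Of 14 genes of the neuronal cytoskeleton, axon and RNA binding, 9 were in the table and 7 passed, with 6 below 0, 1 above and a median of -0.78. Without the filter, 7 of the 9 were below 0, 2 above, and the median was -0.19. Map1b, a microtubule-associated protein of axons, had 25.0 and 16.6 CPM in the Cre-positive mice and 54.4, 32.6 and 20.4 in the Cre-negative mice. Dpysl3, a collapsin response mediator, had 14.1 and 5.91 CPM in the Cre-positive mice and 19.6, 10.7 and 4.89 in the Cre-negative mice. Rtn1, a reticulon gene of neuroendocrine cells, had 4.26 and 1.71 CPM in the Cre-positive mice and 11.98, 5.003 and 1.79 in the Cre-negative mice. These 3 were highest in Cre-negative 1, as the smooth muscle sum was. Cntn1, an axonal adhesion protein, did not overlap between groups, at 2.13 and 2.95 CPM in the Cre-positive mice and 6.71, 5.003 and 4.56 in the Cre-negative mice (log2 fold change -1.07 ± 0.42; edgeR adjusted p = 0.977).

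Of 14 neuronal channel and receptor genes, 11 were in the table and 5 passed, with 3 below 0, 2 above and a median of -0.34. Without the filter the direction turned, with 5 of the 11 below 0, 6 above and a median of 0.11. Chrna3, the nicotinic receptor subunit of autonomic and enteric ganglia, did not overlap between groups, at 1.35 and 0.933 CPM in the Cre-positive mice and 3.12, 4.63 and 2.12 in the Cre-negative mice (log2 fold change -1.52 ± 0.58; edgeR adjusted p = 0.977). Chrnb4, another nicotinic receptor subunit gene of the list, went the other way. It had 16 and 5 counts in the Cre-positive mice and 1, 7 and 3 in the Cre-negative mice. Its groups overlapped, and it did not pass the filter. Rab3c, Cntn1, Chrna3 and Chrnb4 were named here after their values were seen. Over all genes tested, 10.2% did not overlap on the lower side and 7.89% on the higher side. Cacna1a, a presynaptic calcium channel gene, had 8.51 and 10.4 CPM in the Cre-positive mice and 17.01, 14.3 and 7.82 in the Cre-negative mice. The glutamate receptor gene Gria3 had 3.48 and 2.18 CPM in the Cre-positive mice and 5.27, 2.96 and 2.61 in the Cre-negative mice. Scn3a, a sodium channel gene, had 3.68 and 3.73 CPM in the Cre-positive mice, against 1.92, 2.59 and 3.58 in the Cre-negative mice, a narrow separation on the higher side (log2 fold change 0.44 ± 0.44; edgeR adjusted p = 0.977).

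Of 8 cholinergic and aminergic genes, 5 were in the table and 4 passed, with 3 below 0, 1 above and a median of -0.32. Slc5a7, the choline transporter of cholinergic nerve endings, had 0.581 and 1.87 CPM in the Cre-positive mice and 3.12, 2.59 and 1.79 in the Cre-negative mice (log2 fold change -0.97 ± 0.65; edgeR adjusted p = 0.977). Chat, which makes acetylcholine, had 5 and 2 counts in the Cre-positive mice and 3, 3 and 12 in the Cre-negative mice. Ddc, an amine-forming decarboxylase that enterocytes also make, had 10.3 and 88.8 CPM in the Cre-positive mice and 69.5, 30.02 and 109.6 in the Cre-negative mice. Slc18a2, a vesicular monoamine transporter gene, had 31.9 and 34.0 CPM in the Cre-positive mice and 25.4, 21.7 and 32.7 in the Cre-negative mice.

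Of 13 genes of enteric lineage, GDNF and endothelin signalling, 10 were in the table and 5 passed, with 3 below 0, 2 above and a median of -0.15. Tbx3, a T-box factor, had 268 and 320 CPM in the Cre-positive mice and 463, 287 and 399 in the Cre-negative mice. Ece1, the enzyme that activates endothelins, had 33.9 and 41.7 CPM in the Cre-positive mice and 38.3, 45.6 and 41.9 in the Cre-negative mice. Zeb2, a zinc finger factor of neural crest and immune cells, had 49.3 and 12.3 CPM in the Cre-positive mice and 34.7, 23.9 and 15.5 in the Cre-negative mice. Of the 10 other glial genes, 5 were in the table and 4 passed, all 4 below 0, with a median of -0.24. The most abundant were Entpd2, Scn7a and Gpm6b, with log2 fold changes of -0.18 ± 0.40, -0.69 ± 0.34 and -0.09 ± 0.34. Scn7a, a sodium channel gene of glia, had 8.51 and 5.60 CPM in the Cre-positive mice, against 11.5, 13.3 and 9.29 in the Cre-negative mice, so its groups did not overlap. That was 1 of the 4 that passed, where 10.2% of all genes tested did not overlap on the lower side. No gene of these lists passed edgeR's test over all genes. By comparison, the 12 smooth muscle genes were all below 0 with a median of -0.88, and the 3 markers of interstitial cells of Cajal (Kit, Ano1 and Etv1) were below 0 with a median of -0.66.

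**Figure D4:**
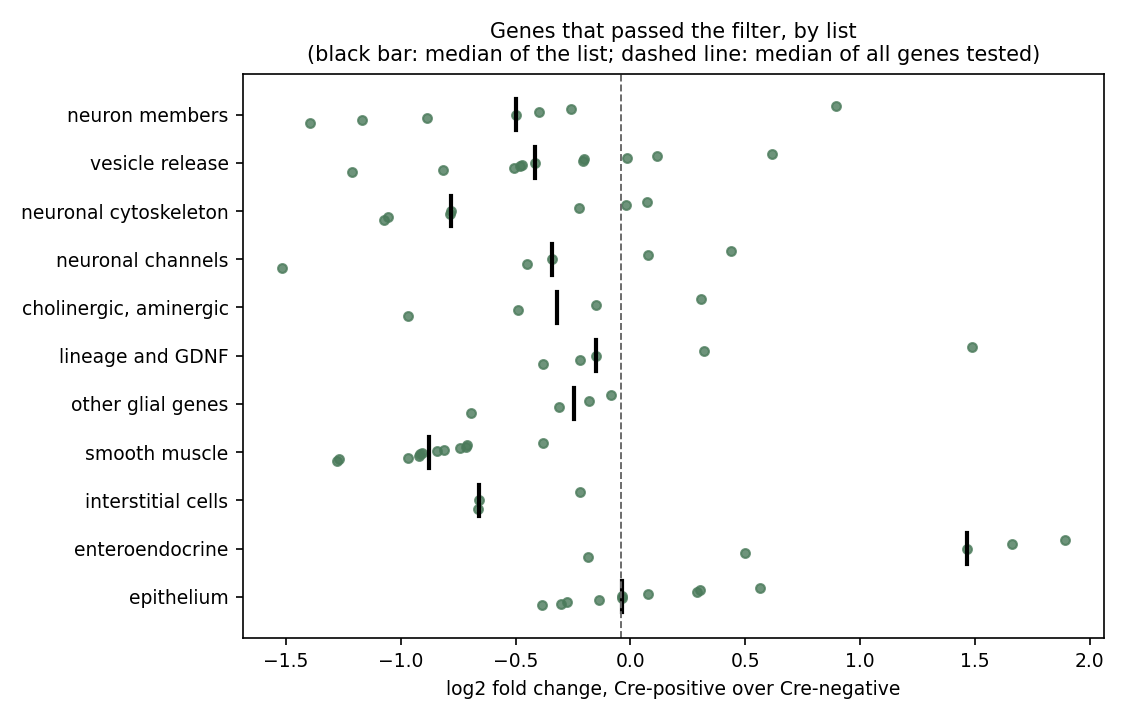
Log2 fold change, Cre-positive over Cre-negative, of each gene that passed the filter, by list, with the median of each list as a black bar and that of all genes tested (-0.04) as a dashed line. The median of the neuron members (-0.50) lies between those of the smooth muscle genes (-0.88) and the other glial genes (-0.24). Single neuron members run from -1.39 to 0.89.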

How the data were processed

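Whole small intestine of 5 mice was profiled by sequencing total RNA depleted of ribosomal RNA (labels' protocols). The authors deposited 1 table of estimated counts per gene, not scaled, and the submitters' processing notes name Partek and mm10. The sources used here name no aligner, annotation or strand setting. Between 19.6% and 21.6% of values per library were not whole (by over 0.005), and all were rounded.

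Mice were grouped by the genotype label. The main test was edgeR 4.0.16 (R 4.3.3) with TMM factors, filterByExpr with a minimum count of 10 (14352 genes left, 4846 removed), robust quasi-likelihood fitting on genotype, and Benjamini-Hochberg adjustment over all genes tested. Each SE was taken as the absolute log2 fold change over the root of F. Members that failed the filter took their values from the same fit without it. With 3 residual degrees of freedom and a biological coefficient of variation of 33.1%, precision is limited. The test was also run on simulated data. CPM per kilobase used exon lengths of GENCODE M21 on GRCm38 (98.6% of symbols matched), the assembly that mm10 denotes.

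The smooth muscle score is the mean log2 CPM (prior count 2) of its list. Members and lists were chosen with earlier results of these data known, so lists are described by counts and medians without a test. All 36 listed genes are accounted for, and from each other pathway list the 3 most abundant genes are named, with additions stated. A few genes of these lists are not reported here. Replicate numbers follow record order. Alternatives tried: scaling by RLE, by upper quartile or by totals, no filter, a filter of 5 CPM in 2 libraries, DESeq2 1.42.0, limma-voom (limma 3.58.1), fitting without robust estimation, an adjusted p threshold of 0.1, the muscle score, and leaving out each mouse over the same genes. Leaving out Tac1 was added after seeing the data.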

Additional observations from a re-analysis of the deposited data

How the results depend on the processing

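The counts of members called higher and lower stayed at 0 under each alternative run. DESeq2 called 12 genes higher and 7 lower over all genes. Leaving out 1 mouse gave 0 to 5 genes called higher (5 without Cre-positive 2). The neuron median of -0.50 became 0.11 with the muscle score, was -0.69 without Tac1, and ran from -0.91 to -0.25 without single mice. The value for the glia genes, which is Erbb3 alone (-0.11), was -0.21 with limma-voom and -0.25 with no filter, where Gfap joins it. It ran from -0.71 without Cre-positive 2 to 0.33 without Cre-positive 1. The median of the shared genes (-0.12) ran from -0.62 without Cre-positive 1 to 0.21. The stricter filter left 5 of the members, none with a turned sign (Ret, Erbb3, Ednrb, Ncam1 and L1cam).

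Of 21 members, 6 kept their direction under each alternative run (Elavl4, Stmn2, Snap25, Syn1, Grp and Gfra1) and 15 turned at least once. With the muscle score the log2 fold change turned to 1.28 for Stmn3, 0.18 for Uchl1, 0.12 for Syt1, 0.27 for Nos1, 0.11 for Vip, 0.0074 for Calb2, 0.36 for Ret, 0.39 for Gfap, 0.077 for Hand2 and -0.35 for L1cam. With limma-voom it turned to 0.029 for Stmn3 and -0.58 for Tac1. Without single mice it ran from -1.15 to 0.90 for Stmn3, from -0.53 to 0.22 for Nos1, from -0.38 to 0.021 for Vip, from -2.71 to 1.91 for Tac1, from -0.12 to 0.85 for Gal and from -0.75 to 0.28 for Gfap. It ran from -0.71 to 0.33 for Erbb3, from -0.58 to 0.95 for Ednrb, from -0.65 to 0.10 for Ncam1 and from -0.17 to 0.40 for L1cam. The cause of these turns was not tested. Snap25 stayed between -1.52 and -1.25 without single mice, and its unadjusted edgeR p was 0.0569 without Cre-positive 1. No paired analysis was possible because the labels give each mouse its own number and no number is shared between the groups. Depth limits the list, since 14 of the 21 members had under 100 counts over the 5 libraries.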
